A study of Homo sapiens with 64 samples.

Results

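The effect of joining a glucocorticoid and a β2-adrenoceptor agonist was examined gene by gene in BEAS-2B cells at 6 h, on 16 of the 64 arrays of the series. BEAS-2B is one immortalised line derived from human bronchial epithelium, and all cells had spent the night before exposure without serum. The 4 groups, of 4 arrays each, were untreated cells (NS), cells given 100 nM budesonide, cells given 10 nM formoterol, and cells given both drugs at those doses. The arrays were chosen by their labels alone. For each of 18132 genes the interaction was computed as the mean of the combination minus the means of budesonide and of formoterol plus the mean of untreated cells, all on the log2 scale. An interaction of 0 means that the combination changed a gene by the sum of both drugs' log2 effects, and 1 unit is a 2-fold departure from that sum. The same data were also set against the sum on the linear scale, in which the increments of both drugs above untreated cells are added before taking log2.

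Budesonide binds the glucocorticoid receptor, a nuclear receptor that on binding raises transcription of some genes and lowers that of others, many of them inflammatory. Formoterol, a long-acting bronchodilator, acts through receptors that raise cyclic AMP and activate protein kinase A, and this kinase phosphorylates CREB, a transcription factor that binds the cyclic AMP response element. The drugs are inhaled together in asthma, and airway epithelial cells carry receptors for both.

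The 4 arrays of a group are separate determinations per the series' design text. The p-values and SEs rest on the spread between arrays within groups, pooled for each gene over all 16 groups of the series. Array medians at 6 h lay between 4.88 and 4.94 log2 units, and precision is limited by having 4 arrays in a group. The epithelial keratins KRT8 and KRT18 were bright in all 4 groups, with group means of 9.12 to 9.27 and 10.43 to 11.09, but EPCAM read 2.55 to 2.67 and CDH1 3.91 to 4.42, so that 3 of 7 epithelial markers reached the median of all probe sets. Of other cell types, 1 of 6 leukocyte, 0 of 6 endothelial and 4 of 10 fibroblast and smooth muscle markers reached it, among them COL1A1 and PDGFRB. PTPRC, the pan-leukocyte marker, read 1.85 to 2.00. Summed over each list on the linear scale, the epithelial markers ranged from 2360 to 3250 on untreated arrays and from 2070 to 2170 with the combination, and the leukocyte markers from 74.3 to 113 and from 84.6 to 94.1. No marker was called in the log2 interaction by limma, and none had an unadjusted p under 0.05, but the epithelial keratin KRT7, at 5.01 untreated, 6.22 with budesonide, 5.45 with formoterol and 7.12 with both, was called above the linear-scale sum (0.69 ± 0.18, adjusted p = 0.0279). The value of 3.02, the first quartile over all probe sets, served as a rough guide: a group mean under it is read as not told from background, although levels of different probe sets cannot be compared.

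At 6 h the combination departed from the log2 sum in 131 of 18132 genes, or 0.722%, at a Benjamini-Hochberg adjusted p under 0.05 in limma. Of these, 81 (0.447%) lay above the sum and 50 (0.276%) below it, and 45 (0.248%) departed at least 2-fold, 29 above and 16 below. Interactions of the 81 genes above ranged from 0.44 to 2.34 with a median of 0.87, and those of the 50 below from −2.87 to −0.39 with a median of −0.78. Over all genes tested the median was −0.02 and the SD 0.19, and 1088 genes had an unadjusted p under 0.05. At the threshold itself, FMN1 (0.73, adjusted p = 0.0482) and DAAM2 (−0.71, adjusted p = 0.0482) were the last genes inside, and PLXNA2 (0.76, adjusted p = 0.0531) and PALLD (−0.30, adjusted p = 0.0526) the first outside. In each of the 4 groups the replicate 1 array had the highest ratio of 3′ to 5′ actin signal, 1.90 to 2.21 log2 units against 0.78 to 1.70 on the other arrays at 6 h. Without the replicate 1 arrays of all groups 84 genes were called, 51 above and 33 below, and 78 of them were among the 131.

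Lying above the sum did not mean one thing. Of the 81 genes above, the combination had the highest of the 4 group means in 53, a middle position in 19 and the lowest in 9. In 23 both drugs alone gave a mean above untreated cells, and in 30 both gave a mean below. The combination was called above each drug alone in 47, where over all genes 3.91% were called above budesonide and 5.57% above formoterol. The share of all genes called above both was not computed, and can be at most 3.91%. Of the 50 genes below the sum, the combination was the lowest group in 16, in between in 25 and the highest in 9. In 31 of the 50 formoterol alone gave a mean above untreated cells and the combination a mean below formoterol, and 32 had a combination called below formoterol, as did 7.85% of all genes. For comparison, 14.2% of all genes were called for budesonide against untreated cells, 4.81% for formoterol, 18.6% for the combination, 6.72% for the combination against budesonide and 13.4% against formoterol. These contrasts share arrays with the interaction and are given beside it as descriptions. The counts of group positions depend in part on the choice of genes by their interaction, and were not made over all genes.

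**Figure D1:**
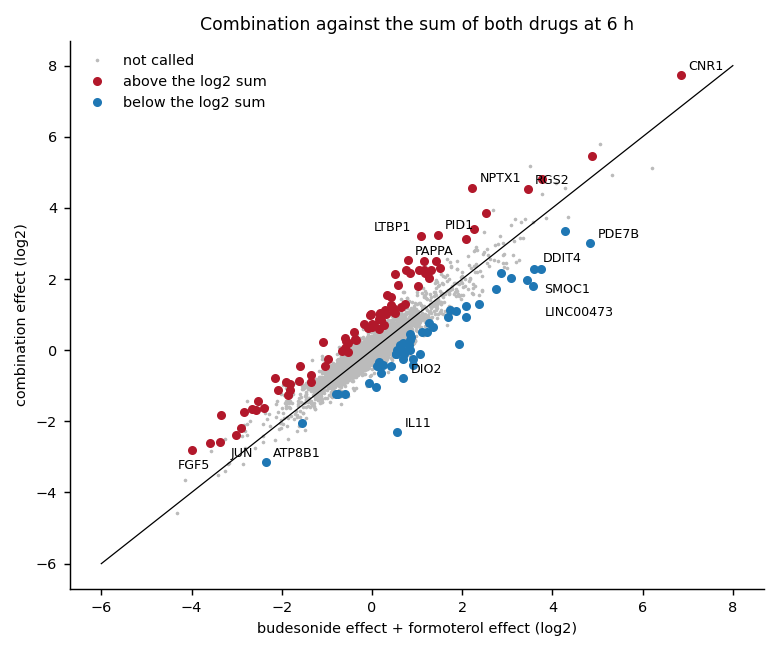
The x axis gives the sum of the budesonide and formoterol effects against untreated cells and the y axis the effect of the combination, both in log2 units at 6 h, with 1 point per gene for 18132 genes and the line of equality drawn. The 81 genes above the log2 sum (red) and the 50 below it (blue) stand off the line, with NPTX1, LTBP1 and PID1 highest above it and IL11 lowest below it.

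Among genes raised most clearly by the combination, LTBP1, PID1, PAPPA and NPTX1 lay furthest above the log2 sum. LTBP1 encodes a matrix protein that holds latent TGF-β. On the untreated arrays LTBP1 read 4.06, 4.25, 3.94 and 3.50, with budesonide 4.79, 4.69, 4.99 and 4.45, with formoterol 4.61, 4.18, 4.33 and 3.81, and with both drugs 7.20, 7.26, 7.04 and 7.11. The combination arrays stood above all 12 others, while formoterol arrays overlapped the untreated ones. Budesonide alone raised LTBP1 by 0.79, formoterol alone gave 0.29 (adjusted p = 0.42), and the combination gave 3.21, so that the interaction was 2.13 ± 0.22 (SE, n = 4 arrays per group; adjusted p = 6.89e-10). PID1, an adaptor protein known for its part in insulin signalling of fat and muscle, behaved alike. On the untreated arrays PID1 read 5.89, 5.75, 5.52 and 5.51, with budesonide 6.30, 6.45, 6.25 and 6.35, with formoterol 6.54, 6.74, 6.04 and 6.49, and with both 8.92, 9.04, 8.84 and 8.86. Each drug alone raised it (by 0.67 and 0.79), no array of the combination overlapped any other group, and the interaction was 1.79 ± 0.20 (adjusted p = 4.07e-09).

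PAPPA encodes a secreted protease that cleaves binding proteins of insulin-like growth factors. PAPPA read 7.31, 7.30, 6.91 and 6.92 untreated, 7.63, 7.28, 7.37 and 7.54 with budesonide, 7.40, 8.37, 7.35 and 7.07 with formoterol, and 9.66, 9.56, 9.59 and 9.73 with both. Neither drug alone changed it past the threshold (0.35 and 0.44), the combination arrays lay above all others, and the interaction was 1.74 ± 0.28 (adjusted p = 5.19e-05). NPTX1, a secreted pentraxin best known at synapses, had the highest interaction of the genes tested, 2.34 ± 0.33 (adjusted p = 2.75e-06). Its untreated values were 3.71, 4.02, 3.49 and 3.56, its budesonide values 3.91, 4.42, 3.87 and 4.06, its formoterol values 5.50, 6.50, 5.52 and 4.68 and its combination values 8.44, 8.43, 8.23 and 7.94. Formoterol raised NPTX1 by 1.85 on untreated cells and by 4.20 on budesonide-treated cells. A second NPTX1 probe set gave an interaction of −0.02, so the size holds for the brighter probe set only.

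**Figure D2:**
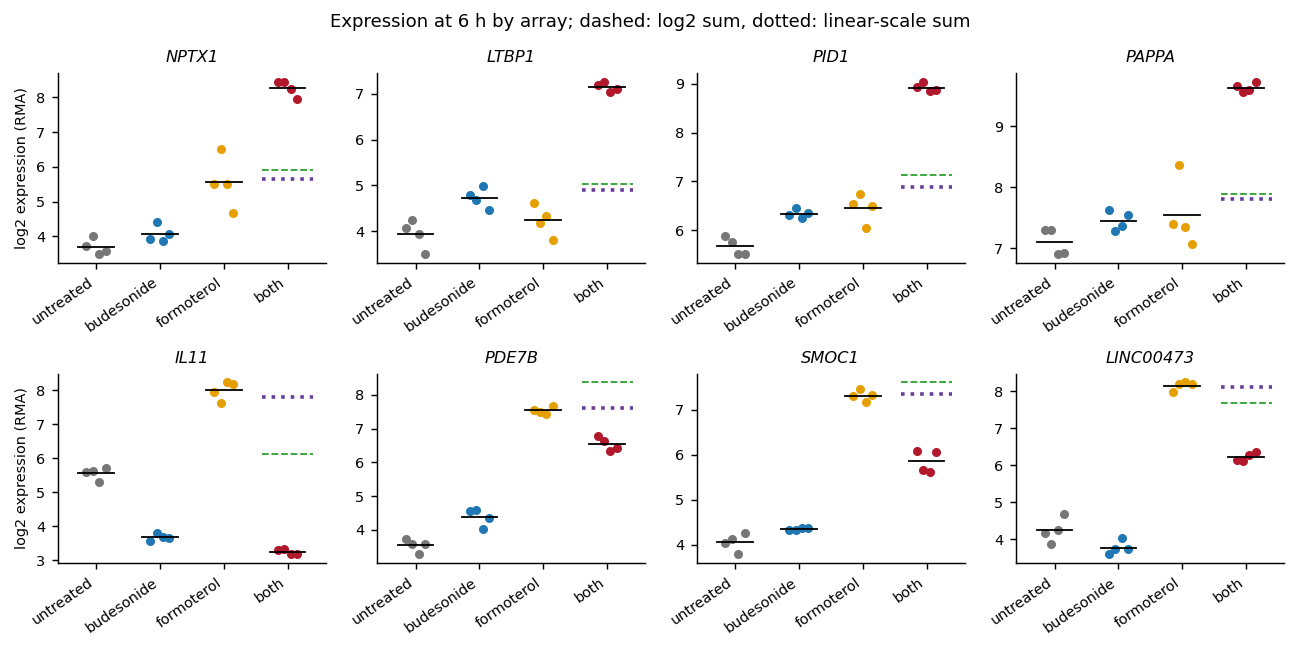
Each panel plots the log2 expression of 1 gene on the 16 arrays at 6 h, by group, with a black line at the group mean. Over the combination, a dashed green line marks the sum of both drugs' log2 effects and a dotted purple line the linear-scale sum, and the combination arrays lie above both lines in the upper row (NPTX1, LTBP1, PID1, PAPPA) and below both in the lower row (IL11, PDE7B, SMOC1, LINC00473).

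IL1RL1, HRK and NRCAM also lay above the sum by over 1 log2 unit. IL1RL1, the receptor chain for an alarmin cytokine of the interleukin family, had means of 2.97 ± 0.27 (SD, n = 4) untreated, 3.37 ± 0.17 with budesonide, 3.07 ± 0.20 with formoterol and 5.10 ± 0.33 with both, an interaction of 1.63 ± 0.25 (SE; adjusted p = 1.63e-05). The untreated IL1RL1 mean was not told from background, and 1 of its 5 probe sets ran the other way (−0.12). HRK, a BH3-only protein that promotes apoptosis, went from 5.62 ± 0.17 untreated to 6.53 ± 0.31 with budesonide, 5.46 ± 0.18 with formoterol and 7.87 ± 0.10 with both, with an interaction of 1.49 ± 0.22 (adjusted p = 1.44e-05). All 4 combination arrays lay above those of the other groups for both genes. The neuronal adhesion molecule NRCAM had an interaction of 1.36 ± 0.30 (adjusted p = 0.00608), with a combination mean of 5.06 against 3.50 with budesonide and background levels of 2.55 and 2.75 in the other groups. The call for NRCAM was lost without all replicate 1 arrays (1.21, adjusted p = 0.148) and as the mean of its probe sets (0.45, adjusted p = 0.086).

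PTGS2, the inducible cyclooxygenase of prostaglandin synthesis, is a known target of cyclic AMP signalling, yet at 6 h formoterol alone gave 0.38 (adjusted p = 0.459) while budesonide raised it by 2.15. PTGS2 read 2.76, 2.43, 2.53 and 1.82 untreated, 4.86, 4.65, 4.50 and 4.13 with budesonide, 2.86, 3.03, 2.71 and 2.48 with formoterol, and 6.31, 6.39, 6.52 and 5.78 with both. The untreated and formoterol means were not told from background, and the 4 combination arrays lay above the budesonide arrays. Its interaction was 1.33 ± 0.29 (adjusted p = 0.00733), and 1.32 without all replicate 1 arrays (adjusted p = 0.0681). CGA, the alpha chain shared by pituitary and placental glycoprotein hormones, read 3.25 ± 0.22 (SD, n = 4), 3.43 ± 0.29, 4.12 ± 0.28 and 5.51 ± 0.17 in untreated, budesonide, formoterol and combination cells. Budesonide alone gave 0.18 (adjusted p = 0.608), formoterol raised CGA by 0.87, and the interaction was 1.21 ± 0.25 (SE; adjusted p = 0.00267). IGFL1, a secreted protein of the IGF-like family, had an interaction of 1.27 ± 0.27 with a combination mean of 4.92 and no call for either drug alone, and 1.30 without all replicate 1 arrays (adjusted p = 0.0514).

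RGS2, which ends signalling by Gq-coupled receptors and is known to be raised by both drug classes, was induced by each drug and more by both. It read 7.46, 7.25, 7.28 and 7.07 untreated, 9.51, 9.52, 9.29 and 9.33 with budesonide, 8.61, 8.69, 8.46 and 8.52 with formoterol, and 11.89, 11.88, 11.75 and 11.66 with both. No 2 groups overlapped, and the interaction was 1.08 ± 0.15 (adjusted p = 2.54e-06). MT1M, a metal-binding metallothionein, had an interaction of 1.33 ± 0.30 (adjusted p = 0.0105), with 5.53, 6.06, 4.82 and 4.46 on combination arrays and 4.41, 4.13, 3.23 and 3.80 on budesonide arrays. The MT1M call was lost without budesonide replicate 3 (1.11, adjusted p = 0.0657), without combination replicate 2 (1.05, adjusted p = 0.0745) and without all replicate 1 arrays (1.43, adjusted p = 0.0803), as well as in a fit of the 6 h arrays alone (adjusted p = 0.122) and as the mean of its 2 probe sets (1.26, adjusted p = 0.0542). CNR1, a cannabinoid receptor, was raised from background by budesonide (8.84 ± 0.04, SD, n = 4) and stood at 9.79 ± 0.13 with both drugs, an interaction of 0.89 ± 0.22 (SE; adjusted p = 0.032). Formoterol alone left CNR1 at 2.10, against 2.05 in untreated cells. Leaving out 1 array ended the CNR1 call for untreated replicates 2, 3 and 4, budesonide replicates 1, 2 and 3, formoterol replicates 1 and 2, and combination replicate 3, with values of 0.83 to 0.91 and adjusted p of 0.0501 to 0.0992, and it was also lost without all replicate 1 arrays (0.87, adjusted p = 0.275) and as the mean of its 2 probe sets (0.47, adjusted p = 0.248).

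A different kind of gene above the sum was lowered by both drugs, and less by both together than the log2 effects add to. JUN, a subunit of the AP-1 transcription factor, fell by 2.81 with budesonide and by 0.56 with formoterol. It read 9.97, 10.04, 10.08 and 10.05 untreated, 7.37, 7.26, 7.11 and 7.14 with budesonide, 9.48, 9.39, 9.53 and 9.49 with formoterol, and 7.42, 7.46, 7.42 and 7.47 with both. The combination arrays lay above the budesonide arrays by a small margin (0.22, adjusted p = 0.191), and the interaction was 0.78 ± 0.14 (adjusted p = 0.000197). FGF5, a growth factor of the fibroblast growth factor family, fell by 2.61 and 1.38 with the drugs alone and by 2.82 with both, with an interaction of 1.17 ± 0.23 (adjusted p = 0.00198). HBEGF, a ligand of the EGF receptor, fell by 1.82, 0.71 and 1.43, with an interaction of 1.10 ± 0.22 (adjusted p = 0.00162). The HBEGF call was lost without all replicate 1 arrays (1.06, adjusted p = 0.058) and as the mean of its 2 probe sets (0.71, adjusted p = 0.343).

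The hair keratin-associated protein gene KRTAP2-3 fell by 1.70 with budesonide, by 1.63 with formoterol and by 1.82 with both, so the combination went little further than either drug and the interaction was 1.52 ± 0.32 (adjusted p = 0.00404). Its means were 5.16 untreated and 3.46, 3.53 and 3.34 in the treated groups, close to the background guide. The log2 sum for KRTAP2-3 lay under that guide, and whether the array could read so low a level was not tested. CLDN1, a tight junction protein, read 8.32, 8.14, 8.08 and 8.17 untreated, 6.46, 6.29, 6.24 and 6.83 with budesonide, 7.87, 7.54, 7.63 and 7.96 with formoterol, and 7.58, 7.18, 6.95 and 7.86 with both. All combination arrays of CLDN1 stood above all budesonide arrays and below all untreated arrays. Formoterol gave −0.43 on untreated cells (adjusted p = 0.122) and raised CLDN1 by 0.94 on budesonide-treated cells, an interaction of 1.36 ± 0.22 (adjusted p = 5.78e-05). The neutrophil chemokine CXCL1 likewise fell by 0.64 with formoterol on untreated cells and rose by 0.67 with formoterol on budesonide-treated cells, with an interaction of 1.31 ± 0.23 (adjusted p = 0.00027). DUSP4, a phosphatase of MAP kinases (0.64 ± 0.12, adjusted p = 0.00089), and ADAMTS1, a secreted metalloprotease (0.71 ± 0.14, adjusted p = 0.00145), both fell with budesonide, by 1.00 and 1.55, and stood higher with the combination than with budesonide alone. ADAMTS1 was not called as the mean of its 2 probe sets (0.72, adjusted p = 0.0671).

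Budesonide-induced genes that formoterol alone did not raise also came to lie above the sum. LPIN1, a phosphatidate phosphatase and coregulator of fasting metabolism, rose by 1.14 with budesonide, fell by 0.83 with formoterol and rose by 1.01 with both, an interaction of 0.70 ± 0.12 (adjusted p = 0.000197). LPIN1 means were 9.71, 10.85, 8.87 and 10.72, so the combination arrays overlapped the budesonide arrays. TSC22D3, the gene of GILZ, an anti-inflammatory leucine zipper protein, read 6.49 ± 0.07 (SD, n = 4) untreated, 11.69 ± 0.11 with budesonide, 6.18 ± 0.11 with formoterol and 11.96 ± 0.02 with both. Its interaction of 0.59 ± 0.15 (SE; adjusted p = 0.0374) was close to the threshold. The TSC22D3 call was lost in 15 of 25 alternatives, among them leaving out untreated replicate 2, 3 or 4, budesonide replicate 2 or 3, formoterol replicate 1, 2 or 3, or any 1 combination array, with values of 0.54 to 0.60 and adjusted p of 0.0564 to 0.112. As the mean of its probe sets TSC22D3 gave 0.33.

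The lowest interaction of all genes tested belonged to the probe set used for IL11, a cytokine of the IL6 family. IL11 read 5.58, 5.63, 5.31 and 5.70 untreated, 3.56, 3.80, 3.68 and 3.64 with budesonide, 7.95, 7.63, 8.24 and 8.20 with formoterol, and 3.30, 3.32, 3.17 and 3.18 with both. No 2 groups overlapped, and the combination was the lowest of the 4. Formoterol raised IL11 by 2.45 on untreated cells and gave −0.43 (adjusted p = 0.258) on budesonide-treated cells, an interaction of −2.87 ± 0.29 (adjusted p = 5.27e-10). Both other IL11 probe sets gave smaller values, −0.90 and −1.01, and the mean of all 3 gave −1.59 (adjusted p = 5.91e-07). The chemokine CCL7, a monocyte attractant, had the same order at a lower level, with 4.11 ± 0.10 (SD, n = 4) with formoterol and 2.73 to 2.99 in the other groups, which were not told from background. Its interaction was −1.16 ± 0.22 (SE; adjusted p = 0.000959).

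Other genes raised by formoterol and lowered by budesonide lost most of the formoterol response when budesonide was present. DIO2, the deiodinase that activates thyroid hormone, read 5.10, 5.46, 5.16 and 3.99 untreated, 3.78, 3.69, 3.54 and 3.53 with budesonide, 6.96, 7.17, 7.18 and 6.35 with formoterol, and 4.45, 4.15, 3.82 and 4.17 with both. The combination arrays overlapped the untreated arrays and lay above the budesonide arrays, and the interaction was −1.47 ± 0.32 (adjusted p = 0.00507). Without all replicate 1 arrays DIO2 gave −1.57 (adjusted p = 0.0835). NHS, a regulator of the actin cytoskeleton, had means of 4.52, 3.44, 6.52 and 4.12 in untreated, budesonide, formoterol and combination cells and an interaction of −1.32 ± 0.28 (adjusted p = 0.00456). IGFBP5, a binding protein of insulin-like growth factors, had means of 5.98, 4.56, 7.49 and 4.94 and an interaction of −1.14 ± 0.28 (adjusted p = 0.028). The IGFBP5 call was fragile: leaving out untreated replicate 2, 3 or 4, budesonide replicate 1, formoterol replicate 1 or 2, or combination replicate 3 or 4 ended it (−1.13 to −0.89, adjusted p 0.0502 to 0.15), as did leaving out all replicate 1 arrays (−1.09, adjusted p = 0.0835), repeated quantile normalization (−1.09, adjusted p = 0.053), a fit of the 6 h arrays alone (adjusted p = 0.0573) and the mean of its 6 probe sets (−0.54, adjusted p = 0.32).

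PDE7B, SMOC1 and LINC00473 kept a formoterol response under budesonide, but a smaller one. PDE7B, a phosphodiesterase that breaks down cyclic AMP, read 3.72, 3.58, 3.27 and 3.58 untreated, 4.55, 4.59, 4.03 and 4.35 with budesonide, 7.56, 7.50, 7.44 and 7.66 with formoterol, and 6.78, 6.65, 6.35 and 6.43 with both. No 2 groups of PDE7B overlapped, formoterol raised it by 4.0 on untreated and by 2.17 on budesonide-treated cells, and the interaction was −1.83 ± 0.23 (adjusted p = 3.76e-07). SMOC1, a secreted calcium-binding matrix protein, read 4.04, 4.12, 3.78 and 4.25 untreated, 4.32, 4.33, 4.37 and 4.37 with budesonide, 7.30, 7.45, 7.17 and 7.33 with formoterol, and 6.08, 5.66, 5.61 and 6.05 with both. Budesonide alone gave 0.30 (adjusted p = 0.275), and the interaction was −1.76 ± 0.23 (adjusted p = 6.84e-07). LINC00473, a long noncoding RNA known as a CREB target, read 4.17, 3.87, 4.27 and 4.69 untreated, 3.60, 3.74, 4.04 and 3.74 with budesonide, 7.98, 8.19, 8.25 and 8.20 with formoterol, and 6.14, 6.12, 6.29 and 6.37 with both. Its interaction was −1.45 ± 0.28 (adjusted p = 0.0011), with the combination between formoterol and the other groups on every array.

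RAP1GAP2, which switches off the small GTPase Rap1, was raised by formoterol in untreated cells and stood at the untreated level with both drugs. It read 8.71, 8.64, 8.50 and 8.61 untreated, 8.66, 8.47, 8.39 and 8.60 with budesonide, 9.85, 9.66, 9.68 and 9.85 with formoterol, and 8.72, 8.46, 8.33 and 8.51 with both. The formoterol arrays stood above all others, and the other 3 groups overlapped. Formoterol gave 1.14 on untreated cells and −0.02 on budesonide-treated cells, an interaction of −1.17 ± 0.13 (adjusted p = 4.07e-09). NFATC2, a calcineurin-dependent transcription factor, had means of 3.94, 4.50, 5.47 and 4.86 and an interaction of −1.16 ± 0.28 (adjusted p = 0.0245). Its call was lost without untreated replicate 4, budesonide replicate 2, formoterol replicate 2 or combination replicate 2 (−1.13 to −0.94, adjusted p 0.053 to 0.121), without all replicate 1 arrays (−1.20, adjusted p = 0.201) and as the mean of its 3 probe sets (−0.51, adjusted p = 0.224).

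A last group below the sum was raised by each drug, with a combination near the stronger drug alone except for PLPP3. DDIT4, an inhibitor of the growth-promoting mTOR complex, read 7.52, 7.68, 7.59 and 7.94 untreated, 9.98, 10.06, 9.92 and 10.26 with budesonide, 8.67, 9.23, 8.78 and 8.92 with formoterol, and 9.96, 9.94, 9.93 and 9.96 with both. The combination arrays of DDIT4 lay within the range of the budesonide arrays, and the interaction was −1.32 ± 0.22 (adjusted p = 6.85e-05). SGK1, a kinase that regulates ion transport, read 8.56, 8.78, 8.97 and 8.88 untreated, 10.36, 10.41, 10.45 and 10.60 with budesonide, 9.86, 9.77, 10.11 and 9.85 with formoterol, and 10.46, 10.47, 10.50 and 10.65 with both. Formoterol raised SGK1 by 1.10 on untreated cells and gave 0.07 (adjusted p = 0.855) on budesonide-treated cells, an interaction of −1.03 ± 0.16 (adjusted p = 4.23e-05). DUSP1, a phosphatase of MAP kinases known to be induced by glucocorticoids, rose by 2.03 with budesonide, by 0.84 with formoterol and by 2.18 with both, an interaction of −0.69 ± 0.13 (adjusted p = 0.000903). As the mean of its 4 probe sets DUSP1 gave −0.45 and was not called.

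DMBT1, a secreted scavenger receptor of mucosal surfaces, rose by 1.54 with budesonide, by 2.21 with formoterol and by 2.28 with both. Its interaction was −1.46 ± 0.23 (adjusted p = 2.37e-05), and −0.54 as the mean of its 3 probe sets (adjusted p = 0.176). KCNK2, a background potassium channel, had means of 6.10 untreated and 7.28, 7.28 and 7.40 in the treated groups, whose arrays overlapped, with an interaction of −1.07 ± 0.25 (adjusted p = 0.0154). The KCNK2 call was lost without untreated replicate 3 or 4, budesonide replicate 1 or 4 or combination replicate 2 (−1.0 to −0.92, adjusted p 0.0552 to 0.0741), and without all replicate 1 arrays (−1.0, adjusted p = 0.275). PLPP3, which dephosphorylates bioactive lipids, rose by 1.54 with either drug and by 2.02 with both, an interaction of −1.06 ± 0.20 (adjusted p = 0.000647). Its combination arrays (8.57 to 8.81) lay above all arrays of either drug alone.

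**Figure D3:**
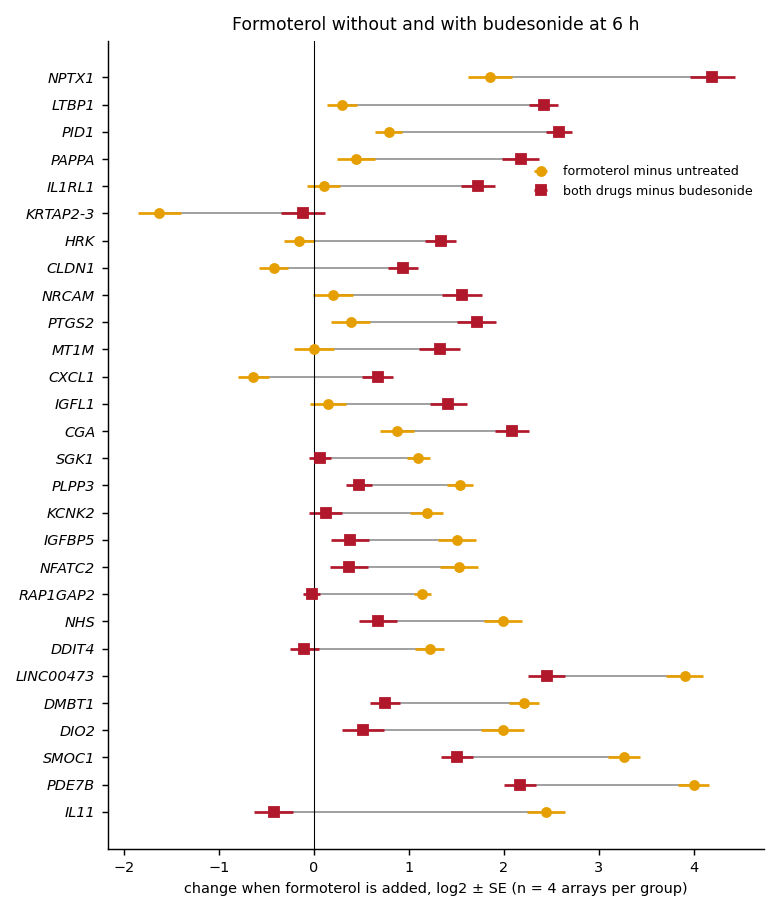
Change in log2 expression when formoterol was added to untreated cells (orange circles) and to budesonide-treated cells (red squares) at 6 h, ± SE with n = 4 arrays per group, for the 14 named genes above the log2 sum (top) and the 14 below it (bottom). The squares lie to the right of the circles in the upper 14 genes and to the left in the lower 14, from 1.85 and 4.20 for NPTX1 to 2.45 and −0.43 for IL11.

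Since formoterol acts through cyclic AMP, the promoters of the called genes were searched for the full cyclic AMP response element, TGACGTCA, on either strand. The search covered 250 bases before to 50 after the annotated start in RefSeq (GRCh38.p14). Of the 131 called genes 109 had a promoter in the table, and 6 of these held the element: CGA and LTBP1 above the sum, and PDE7B, DUSP1, DAAM2 and LMCD1 below. DAAM2 and LMCD1 were named after their values were seen, and in both the formoterol arrays overlapped the untreated arrays. SMOC1 and LINC00473, which formoterol alone raised by 3.27 and 3.91, were not among the 6. Whether each was among the 109 genes with a promoter to search is not given here. The share was 2 of 64 promoters above the sum (3.12%) and 4 of 45 below it (8.89%), against 2.66% of 14425 promoters of all genes tested. The shorter motif TGACG, which the full element contains, was in 28.1% above, 40% below and 29.7% of all. The full palindromic glucocorticoid response element was in 0 promoters of either set and 0 of all, and a looser form of it in 0 of either set and 0.256% of all. With shares this low over all genes, these counts cannot tell the called sets from the rest. The 200 bases before the start are shown for CGA, LTBP1, PDE7B and DUSP1, 5′ to 3′ on the strand of the gene, since these genes with the same element lay on both sides of the sum. Capitals mark the element, which begins 142 and 124 bases before the start in CGA, 94 in LTBP1, 155 in PDE7B and 125 in DUSP1. A match is a description of the letters, and binding was not measured. The windows are chr6:87095107-87095306 (minus strand), chr2:32946753-32946952 (plus strand, the start listed first for this gene), chr6:135851501-135851700 (plus strand) and chr5:172771196-172771395 (minus strand).
CGA: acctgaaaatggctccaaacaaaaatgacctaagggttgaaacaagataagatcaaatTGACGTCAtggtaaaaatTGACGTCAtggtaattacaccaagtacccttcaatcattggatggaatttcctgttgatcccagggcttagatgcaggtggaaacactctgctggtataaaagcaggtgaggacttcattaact
LTBP1: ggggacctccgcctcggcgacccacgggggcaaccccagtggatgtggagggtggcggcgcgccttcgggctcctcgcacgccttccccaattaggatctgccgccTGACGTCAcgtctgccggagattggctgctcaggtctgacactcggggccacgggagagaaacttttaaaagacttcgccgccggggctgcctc
PDE7B: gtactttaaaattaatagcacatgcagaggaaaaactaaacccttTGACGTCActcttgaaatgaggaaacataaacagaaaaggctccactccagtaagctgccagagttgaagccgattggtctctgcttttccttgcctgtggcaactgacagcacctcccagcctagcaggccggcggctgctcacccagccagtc
DUSP1: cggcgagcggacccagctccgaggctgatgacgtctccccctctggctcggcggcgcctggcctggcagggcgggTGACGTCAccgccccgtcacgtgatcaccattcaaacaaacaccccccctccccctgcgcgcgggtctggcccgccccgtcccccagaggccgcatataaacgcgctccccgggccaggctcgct
CGA holds a pair of elements, whereas the other 3 promoters hold 1 element each. Formoterol alone gave 0.29 for LTBP1 (not called) and raised PDE7B by 4.0, so genes with the element did not share one response.

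Set against the linear-scale sum, 227 of 17484 genes (1.3%) departed, 108 above (0.618%) and 119 below (0.681%), and 648 genes had a linear sum under 4, too low to test. The balance of directions depended on the method: limma on the linear values called 256 genes, 161 above and 95 below. The scale matters because, for a pair of inducing drugs, the log2 sum is the higher of the expectations. Of the 81 genes above the log2 sum, 52 were also above the linear sum, 17 were not called and 12 could not be tested. Of the 50 below the log2 sum, 36 were also below the linear sum, 13 were not called and 1 could not be tested. No gene was called above one sum and below the other. NPTX1 (2.60 ± 0.24), LTBP1 (2.24 ± 0.17), PID1 (2.04 ± 0.15), RGS2 (1.97 ± 0.10) and PAPPA (1.82 ± 0.23) stood highest above the linear sum. DDIT4, SGK1, DUSP1, DMBT1, KCNK2 and PLPP3, all below the log2 sum, were −0.52 to −0.10 from the linear sum and not called there. JUN, FGF5, HBEGF and KRTAP2-3 had linear sums too low for a test, and CLDN1 gave 3.62 ± 3.0, not called.

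The linear comparison added 56 genes above and 83 below that were not called on the log2 scale. In all 56 the combination was the highest group, and in 50 of them both single drugs gave means above untreated cells. Both counts follow in part from calling these genes on the linear scale only, where the expectation for inducing drugs is lower. Known glucocorticoid-induced genes among the 56 were CDKN1C, an inhibitor of the cell cycle (1.25), PDK4, a kinase that limits glucose oxidation (1.78), CRISPLD2, a secreted protein that restrains inflammatory responses in airway cells (1.11), ZBTB16 (0.96) and FOXO1 (0.59), both transcription factors. CRISPLD2 illustrates the scale: its means were 5.39 untreated, 8.63 with budesonide, 8.34 with formoterol and 10.52 with both, which gave a log2 interaction of −1.07 ± 0.38 (adjusted p = 0.323) and a linear departure of 1.11 (adjusted p = 0.00251). PDK4 had a log2 interaction of 1.68 ± 0.55 that did not pass (adjusted p = 0.231), with untreated and formoterol means of 2.71 and 2.82, not told from background.

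Below the linear sum IL11 (−4.55 ± 0.22, and −2.25 as the mean of its probe sets), CCL2 (−3.30 ± 0.20), EPHA5 (−2.68 ± 0.20), DIO2 (−2.54 ± 0.25) and TM4SF1 (−2.45 ± 0.21) stood lowest. The monocyte chemoattractant CCL2 read 8.77, 9.24, 8.80 and 9.02 untreated, 5.61, 5.92, 5.37 and 5.78 with budesonide, 10.70, 10.42, 10.88 and 10.47 with formoterol, and 6.64, 6.88, 6.95 and 6.87 with both. No 2 groups overlapped, and its log2 interaction of −0.50 ± 0.22 was not called (adjusted p = 0.702): formoterol raised CCL2 by 1.66 on untreated cells and by 1.17 on budesonide-treated cells. EPHA5, an ephrin receptor, and TM4SF1, a membrane protein of the tetraspanin-like family, had the same order of groups, with log2 interactions of −0.83 (adjusted p = 0.0657) and −1.01 (adjusted p = 0.0729). PDE4B, a cyclic AMP phosphodiesterase, was at −2.10 on the linear and −0.74 on the log2 scale (adjusted p = 0.626). In 59 of the 83 genes formoterol alone gave a mean above untreated cells and the combination a mean below formoterol. That count too follows in part from the choice of genes below the linear sum.

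**Figure D4:**
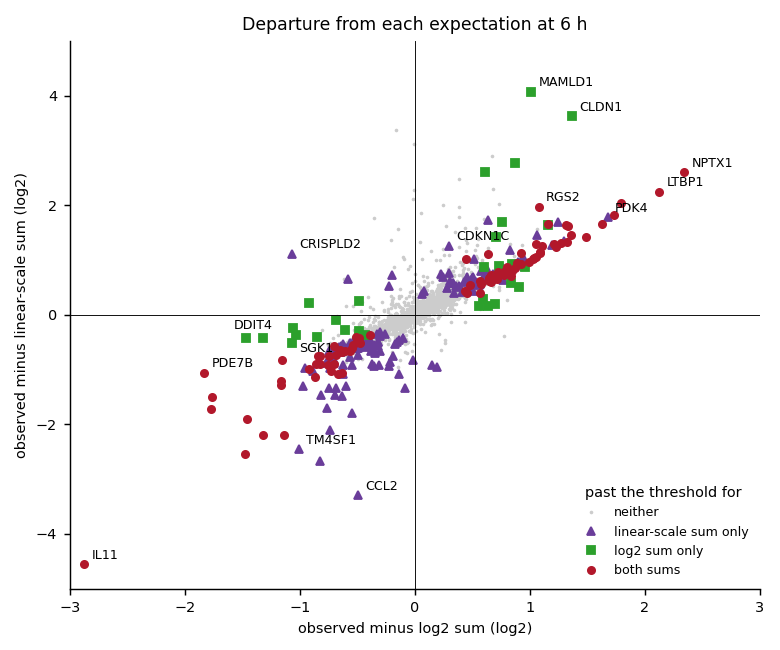
Each point is a gene at 6 h, placed by its departure from the log2 sum (x axis, log2 units) and from the linear-scale sum (y axis, log2 units), for 17484 genes with a linear sum of at least 4. NPTX1, LTBP1 and IL11 depart from both sums (red), CCL2, TM4SF1, PDK4, CDKN1C and CRISPLD2 from the linear sum only (purple), and DDIT4 and SGK1 from the log2 sum only (green).

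The 17 gene lists were read by their counts beside the 0.722% of all genes called and the median of −0.02. The lists and their members were chosen with earlier results of these data known, so their counts are descriptions and not tests. Among 26 glucocorticoid-induced genes, of which budesonide alone raised 25 (6.12% of all genes rose), TSC22D3, RGS2 and CNR1 lay above the log2 sum and DUSP1, SGK1 and DDIT4 below (median 0.16), while FKBP5 (−0.07), PER1 (−0.13) and KLF9 (−0.71, adjusted p = 0.0729) were not called. Against the linear sum, where 0.618% of all genes lay above and 0.681% below, 7 of the 26 lay above and 0 below. Formoterol alone raised 7 of the 26. For a pair of inducing drugs the linear sum is the lower expectation, so this direction follows in part from the choice of list. Among 22 cyclic AMP and CREB-induced genes, of which formoterol alone raised 13 (2.76% of all genes rose), PTGS2, RGS2 and CGA lay above and PDE7B, LINC00473 and DUSP1 below (median −0.17), and 4 lay above and 5 below the linear sum, beside the same shares of all genes. The nuclear receptor NR4A3 gave −0.77 (adjusted p = 0.0866) on the log2 scale and −0.88 on the linear scale, where it was called. RGS2 and DUSP1 are in both lists.

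In lists of the signalling machinery the counts were near what 0.722% of all genes gives for lists of this size. None of 12 genes of the glucocorticoid receptor and its partners, 26 of β-adrenoceptor and cyclic AMP signalling, and 11 of the CREB family was called by limma on the log2 scale, with 1 gene in each list at an unadjusted p under 0.05. The receptor gene NR3C1 itself read 10.60 ± 0.14 (SD, n = 4) untreated, 9.55 ± 0.12 with budesonide, 10.92 ± 0.14 with formoterol and 9.49 ± 0.13 with both. NR3C1 fell by 1.05 with budesonide and rose by 0.32 with formoterol, and its interaction of −0.38 ± 0.12 (SE) did not pass (adjusted p = 0.182). In limma fits with a block for replicate number, overall or within each time, it passed (adjusted p = 0.0325 and 0.0129). Against the linear sum NR3C1 was called below, at −0.66 ± 0.15 (adjusted p = 0.00595), the 1 gene of the 12 to depart from it. PDE7B was the 1 called gene of 13 phosphodiesterases, and PDE4D, which formoterol raised by 2.00, had an interaction of 0.24 ± 0.19.

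Of 25 cytokines and chemokines CXCL1 lay above and IL11 and CCL7 below, while IL6, lowered by budesonide (3.94 against 5.81), gave 0.26 and CXCL8 0.50, neither called. Of 21 growth factors and hormones HBEGF and FGF5 lay above and none below, and of 16 MAP kinase phosphatases and feedback inhibitors DUSP4 lay above and DUSP1 below. JUN was the 1 of 18 immediate early factors, LPIN1 the 1 of 20 fasting genes, MT1M the 1 of 9 metallothioneins, RGS2 the 1 of 15 regulators of G-protein signalling and ADAMTS1 the 1 of 27 matrix genes called, all above. MT1X and MT2A, bright metallothioneins at 11.39 and 13.79 with the combination, had interactions of 0.31 and 0.06. The highest value on any array at 6 h was 13.87, so MT2A lay near the top of the scale. Whether it could read higher was not tested. No gene was called among 17 clock genes, 24 cell division genes and 11 cholesterol genes, with 4, 1 and 0 genes at an unadjusted p under 0.05.

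Some genes outside the naming rule were singled out after their values were seen. The plasminogen activator PLAT, which starts fibrinolysis, rose by 1.73 with budesonide and by 3.13 with both (interaction 1.05 ± 0.16, adjusted p = 2.37e-05). The amino acid transporter SLC7A2 had means of 5.33, 6.52, 6.40 and 8.74 (1.16 ± 0.21, adjusted p = 0.000311), and the sulphate transporter SLC26A2 10.18, 10.95, 10.73 and 12.42 (0.93 ± 0.11, adjusted p = 6.8e-08). PHLDB2, a protein of the cell cortex, stood at 9.99, 10.11 and 9.82 without the combination and at 10.97 with it (1.03 ± 0.14, adjusted p = 7.17e-07). Below the sum, the lipid flippase ATP8B1 fell by 1.71, 0.64 and 3.14 (−0.80 ± 0.17, adjusted p = 0.00325) and the TGF-β signal carrier SMAD3 by 1.16, 0.40 and 2.05 (−0.49 ± 0.12, adjusted p = 0.0314). GAS1, a growth arrest protein of the cell surface, rose by 2.85, 1.43 and 3.36 (−0.92 ± 0.20, adjusted p = 0.00432).

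The interaction was also measured at 1, 2 and 18 h, with group means from arrays that the 6 h contrast does not use. All times share 1 estimate of the spread per gene, so calls at 6 h and at another time are not independent. Over all genes 0.171%, 0.59% and 0.276% were called at 1, 2 and 18 h. Of the 81 genes above the sum at 6 h, 62, 73 and 67 were above 0 at 1, 2 and 18 h (76.5%, 90.1% and 82.7%, against 57%, 53.2% and 45.4% of all genes), and 6, 20 and 9 were called above 0, as were 0.0772%, 0.358% and 0.154% of all genes. Of the 50 below, 38, 45 and 43 were below 0 (76%, 90% and 86%, against 43%, 46.8% and 54.6% of all genes), and 7, 15 and 7 were called below 0, as were 0.0938%, 0.232% and 0.121% of all genes. No gene called at 6 h was called in the other direction at another time. Medians of the 81 were 0.11, 0.31 and 0.29 at 1, 2 and 18 h against 0.87 at 6 h, and those of the 50 were −0.09, −0.44 and −0.29 against −0.78, where the choice of genes at 6 h makes the 6 h medians large.

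Individual genes had different courses. DUSP1 was below the sum at every time, at −1.51, −1.39, −0.69 and −0.59 from 1 to 18 h, each called. SGK1 was at −2.47, −2.25, −1.03 and −0.35 and DDIT4 at −1.86, −1.50, −1.32 and −0.70, called at the first 3 times. PTGS2 was above at 2.22, 2.39 and 1.33, with 0.73 at 18 h not called. IL11 was at −0.84, −1.48, −2.87 and −1.52, and RAP1GAP2 at −0.08, −0.54, −1.17 and −0.57, both called from 2 h on. LTBP1 (−0.02, 0.15, 2.13 and 1.27), PID1 (0.18, 0.17, 1.79 and 1.02), PDE7B (0.25, −0.04, −1.83 and −1.42) and SMOC1 (0.30, −0.57, −1.76 and −1.44) were called at 6 and 18 h only among the 4 times. NPTX1 was at 2.36 at 2 h and 0.22 at 18 h, and its difference between 6 and 18 h (2.12) did not pass (adjusted p = 0.0537).

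Tests of the difference between times called 13 genes for 6 h against 2 h (0.0717%) and 9 for 6 h against 18 h (0.0496%). Of genes called at 6 h, LTBP1 (1.97 ± 0.31, adjusted p = 0.000513), PID1 (1.62 ± 0.28, adjusted p = 0.000933), CXCL1 (1.48 ± 0.33, adjusted p = 0.0431), SGK1 (1.22 ± 0.23, adjusted p = 0.00545), PHLDB2 (1.04 ± 0.19, adjusted p = 0.00394), ANTXR2 (0.97 ± 0.20, adjusted p = 0.0242) and MMD (0.63 ± 0.13, adjusted p = 0.023) had a higher interaction at 6 h than at 2 h, and PDE7B a lower one (−1.79 ± 0.33, adjusted p = 0.00394). Against 18 h the interaction at 6 h was lower for DIO2 (−2.43 ± 0.45, adjusted p = 0.0057), whose value at 18 h was 0.96 and not called, and higher for PHLDB2 (1.13 ± 0.19, adjusted p = 0.0046), SLC26A2 (0.87 ± 0.16, adjusted p = 0.0057), DUSP4 (0.82 ± 0.17, adjusted p = 0.029) and ZFAND5 (0.68 ± 0.13, adjusted p = 0.015). The other genes called in these tests were not called at 6 h. PHLDB2, ANTXR2, MMD, SLC26A2 and ZFAND5, like KRT7 among the markers, were named after their values were seen. IL6, not called at 6 h, differed between 6 and 2 h by 2.26 ± 0.39 (adjusted p = 0.000933), from −2.0 at 2 h to 0.26 at 6 h. Without formoterol replicate 2 the difference from 18 h was called in 17 genes. Without the replicate 1 arrays of all groups limma called 0 genes against 2 h, with 623 at an unadjusted p under 0.05, and 2 against 18 h, with 730.

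**Figure D5:**
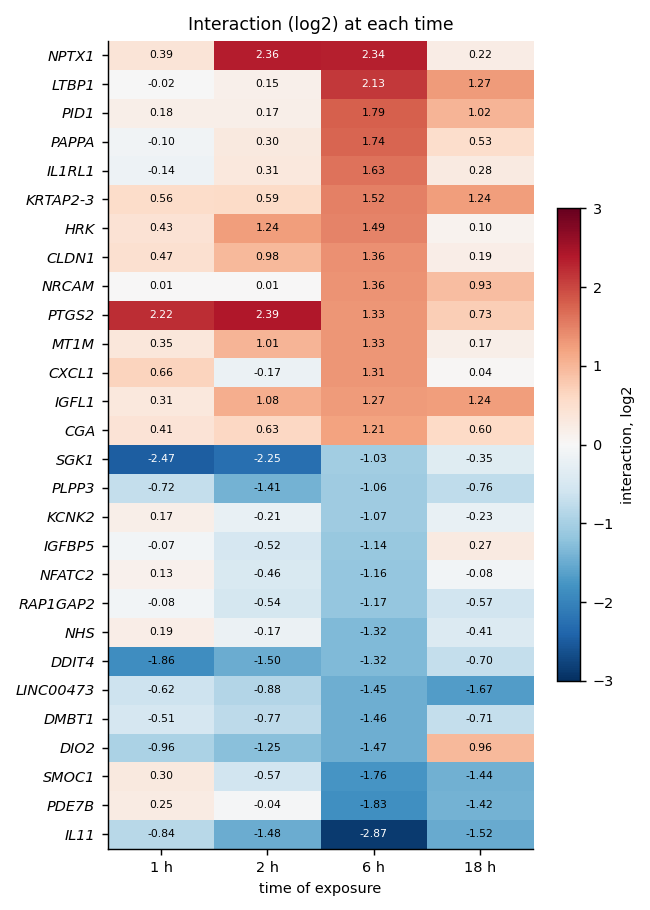
Interaction in log2 units (colour and printed value) at 1, 2, 6 and 18 h for the 28 named genes, those above the log2 sum at 6 h on top. LTBP1 and PID1 are near 0 at 1 and 2 h, SGK1 is lowest at 1 and 2 h, and DIO2 turns from −1.47 at 6 h to 0.96 at 18 h, which was not called.

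Of the 28 named genes 23 had several probe sets, and in 20 of these all probe sets gave an interaction of one sign. The exceptions were NPTX1, IL1RL1 and IGFBP5, each with 1 probe set across 0. The spread in size was wide, from 0.17 to 2.08 for PAPPA and from −1.83 to −0.18 for PDE7B, and narrow for SMOC1 (−1.76 to −1.54) and SGK1 (−1.03 to −0.98). As the mean of their probe sets NPTX1 (1.16), PTGS2 (0.87), CLDN1 (0.84), CXCL1 (0.77), PDE7B (−0.90), NHS (−0.81), DIO2 (−0.77) and RAP1GAP2 (−0.62) kept their calls at values over 1.5 times smaller. Against the linear sum the same holds for NPTX1 (1.26), DIO2 (−1.05), EPHA5 (−1.52) and TM4SF1 (−1.62).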

How the data were processed

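Total RNA of BEAS-2B cells was hybridised to 64 arrays, with 4 in each of 16 groups. The authors deposited log2 values for each probe set, made with RMA per the submitters' processing notes. The RMA version, and whether 1 run covered all arrays, are not given in the sources used here. A joint run would hide any shift common to most genes. Of 49395 probe sets 44994 had 1 gene symbol, 1832 several and 2569 none. A gene was represented by its single-symbol probe set with the highest mean, which gave 18132 genes, and symbols were updated through gene identifiers.

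One limma 3.58.1 model (in R 4.3.3, with data.table, version 1.17.8) held 16 group means with 48 residual degrees of freedom, empirical Bayes moderation and an intensity trend. Tests were two-sided, with Benjamini-Hochberg adjustment over all genes of a contrast and a threshold of 0.05. The linear-scale sum used the group means, a delta-method SE from the same fit and a least sum of 4. Scripts were tested on simulated data. Figures used matplotlib 3.10.9 in Python 3.11.15.

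Named genes were the 14 highest and 14 lowest called interactions of at least 1 log2 unit in which 1 group or more reached 4.90, the overall median. The 5 highest and 5 lowest departures from the linear sum, called list members and NR3C1 were also named. Members, lists and tests were chosen with earlier results of these data known. Alternatives were a replicate block, 2 other normalizations, a filter on dim genes, no intensity trend, other uses of probe sets, fewer arrays in the fit, and each array left out. Promoters came from RefSeq, GRCh38.p14, for 14425 of the genes tested.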

Additional observations from a re-analysis of the deposited data

Results flagged for a closer look

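Among 172 groups of 4 arrays tested over 43 named genes, 4 held an array far from the others by Dixon's test, and chance gives about 1 in 20. MT1M read 3.211 on untreated replicate 2 (nearest array 3.006), and CGA 4.533 on formoterol replicate 1 (nearest 4.022). HBEGF read 6.814 on untreated replicate 4 (nearest 7.273), and NR3C1 10.72 on formoterol replicate 4 (nearest 10.98). The MT1M, CGA and HBEGF interactions at 6 h passed limma's threshold without the array concerned, and that of NR3C1 did not pass with or without it.

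Some genes, most of them called at 6 h, had an interaction that differed between times by limma's test of the difference. Against 2 h the interaction at 6 h differed by 1.973 for LTBP1 (adjusted p = 0.000513), 1.623 for PID1 (adjusted p = 0.000933), 1.482 for CXCL1 (adjusted p = 0.0431), 1.216 for SGK1 (adjusted p = 0.00545), 1.036 for PHLDB2 (adjusted p = 0.00394), 0.9705 for ANTXR2 (adjusted p = 0.0242), 0.6262 for MMD (adjusted p = 0.023), 2.265 for IL6 (adjusted p = 0.000933), which was not called at 6 h, and −1.791 for PDE7B (adjusted p = 0.00394). Against 18 h it differed by −2.434 for DIO2 (adjusted p = 0.0057), 1.129 for PHLDB2 (adjusted p = 0.0046), 0.8719 for SLC26A2 (adjusted p = 0.0057), 0.8175 for DUSP4 (adjusted p = 0.029) and 0.6755 for ZFAND5 (adjusted p = 0.015).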

How the results depend on the processing

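The direction of the interaction held for all 28 named genes under the 25 alternatives that gave 1 value per gene, and 19 of the 28 passed the threshold in each. The replicate blocks, the fit without intensity trend, the filter on dim genes and the 6 h arrays alone leave the estimate unchanged, so they could not alter a direction. With 1 array left out, a change of direction was unlikely for genes chosen by an interaction of at least 1 log2 unit. Taken singly, 1 probe set each of NPTX1 (−0.02), IL1RL1 (−0.12) and IGFBP5 (0.003) had the opposite sign. The other 9 lost the call in at least 1 alternative, with values beside them in the report. Leaving out 1 array at 6 h gave 107 to 142 genes off the log2 sum (64 to 92 above, 34 to 67 below) and 193 to 256 off the linear sum (89 to 108 above, 92 to 154 below). It gave 6 to 17 genes for the difference from 18 h and 9 to 14 for that from 2 h. Without the replicate 1 arrays of all groups these counts were 84 (51 above, 33 below), 151 off the linear sum (69 above), 2 and 0 (623 by limma at an unadjusted p under 0.05). Dim genes left out gave 17 for the difference from 18 h, a fit of the compared times alone gave 6 for that from 2 h, and testing all probe sets separately called 202. The causes were not tested. Centring arrays on their medians and repeated quantile normalization called 128 and 133 genes, 124 and 126 of them among the 131.

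The labels number replicates 1 to 4 in each group without saying what a number shares. Deviations from group means correlated above 0.1 in 19 of 24 same-numbered pairs at 6 h (−0.02 to 0.41, mean 0.232, against −0.08 for other numbers), and 15 of 16 arrays correlated best with their own number, a hint from the data and not the design. With the replicate block 272 genes were called (159 above, 113 below), all 131 among them, 163 lay above the linear sum, and the differences from 18 and 2 h gave 49 and 29. With the replicate block within each time the counts were 428 (246 above, 182 below), 505 off the linear sum (236 above, 269 below), 109 and 82. NR3C1 passed with either block (−0.38, adjusted p = 0.0325 and 0.0129).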
